A study of Mus musculus with 4 samples.

Results

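Transcripts of the BET proteins and of the P-TEFb control system were measured by total RNA sequencing of mouse embryonic fibroblasts (MEF). The 8 genes were taken by symbol. They were the BET readers Brd2 and Brd3, the P-TEFb kinase Cdk9 with its cyclins Ccnt1 and Ccnt2, and the 7SK complex proteins Hexim1, Larp7 and Mepce, out of 47937 genes in the deposited count table. The untreated group held 2 libraries from cells labelled wild-type, and the genistein group held 2 libraries from cells given 50 µM genistein for 24 h. Whether the untreated cells received the solvent alone is not stated in the labels, so its effect cannot be told apart from that of genistein. Genistein is an isoflavone from soy, known as an inhibitor of tyrosine kinases and topoisomerase II. The labels of the treated libraries repeat the treatment in place of a genotype, so the wild-type genotype is stated only for the controls, and neither the age of the embryos nor the number of donor animals is given. The comparison asks how these transcript levels stood after genistein. The labels do not say whether the libraries of a group came from separate cultures, so the p-values below measure only the spread between these libraries, which may be technical.

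BET proteins bind acetylated histones through a pair of bromodomains and bring transcription factors and elongation machinery to active chromatin. P-TEFb, the CDK9 kinase bound to cyclin T1 or T2, phosphorylates RNA polymerase II, NELF and DSIF, and so releases polymerase that has paused shortly after initiation. Much of the P-TEFb of a cell is held inactive in the 7SK complex, in which 7SK RNA, capped by MEPCE and stabilised by LARP7 on its 3′ end, carries HEXIM1 as the kinase inhibitor.

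Of the 8 genes, the normalised level of Hexim1 rose by 67.9% and that of Ccnt2 by 9.98%, whereas Larp7 fell by 28.5%, Cdk9 fell by 23.0% and Brd3 fell by 10.2%. Brd2, Ccnt1 and Mepce did not pass the test. The 7SK RNA itself, Rn7sk, fell by 36.1%. In all, 2 of the 8 genes were called higher and 3 lower at an adjusted p under 0.05 (edgeR quasi-likelihood test, Benjamini-Hochberg adjustment). Of all 16240 genes tested, 33.5% were called higher, 38.2% lower and 71.7% in either direction, so 5 calls among 8 genes is a share near the background. No gene of the 8 passed the thresholds used in the study (besides the adjusted p, a mean count over 100 and a log2 fold change beyond 1 in size), which 8.08% of all genes passed. The median log2 fold change of the 8 genes was -0.04 against -0.03 over all genes, and their median absolute log2 fold change was 0.15 against 0.44. Among the 11642 genes with a mean count over 100, as all 8 had, these medians were -0.10 and 0.39.

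The libraries held between 28591958 and 31464284 counts. Pearson correlations of log2 normalised counts, across the genes and repeats tested, were 0.9947 within each group. They were between 0.9579 and 0.9616 across groups, and no library stood apart from its group. Fibroblast markers were abundant, with a summed normalised count between 412600 and 444700 in every library, although Thy1 was at 0 and of the 9 markers tested 2 rose and 7 fell. Summed immune markers were between 193.7 and 209.8 in untreated and between 560.7 and 575.9 in genistein libraries, mainly from Cd68 and Csf1r, while Adgre1 was at 0. Summed epithelial markers were between 451.5 and 461.6 in untreated and between 130.6 and 136.9 in genistein libraries, mainly from Krt8. Epcam and Krt5 were at 0, and Cdh1 averaged 5.61 in untreated and 5.92 in genistein libraries. Summed endothelial markers were between 24.97 and 30.7 in untreated and between 85.33 and 97.17 in genistein libraries, mainly from Kdr. Pecam1, Cdh5 and Tek were too low to be tested. Of the 4 pluripotency markers, Sox2 and Zfp42 were at 0 and the 2 tested were not called. All 10 S phase genes listed were called lower with genistein, as were 5 of the 10 G2/M genes, where 38.2% of all genes were called lower. In flow cytometry of MEF cells at this dose and time, the study reported a shift of most cells to the G2/M phase. The part of these shifts in the results below was not tested, and in bulk RNA fewer cells of a type and less RNA per cell cannot be told apart.

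Sequences are shown for Hexim1 and Larp7, which had the largest rise and the largest fall of the 8 genes, and for the RNA on which the complex is built. Promoter windows of 300 bases around the RefSeq starts (GRCm38.p6) were matched for 7 of the 8 genes, 9 windows in all, and 6 motifs were searched on both strands. TATAA was found in the window of Hexim1 alone and the cyclic AMP response element TGACGTCA in that of Larp7 alone. These letters occur in 24.9% and 1.79% of all 32851 windows respectively. GGGCGG, the GC box, occurred in windows of all 7 genes (35.7% of all windows), CCAAT in those of 4 (37.4%), the ETS motif CCGGAAG in those of 3 (8.86%), and the E-box CACGTG in none (7.15%). A gene was counted when any of its windows held the letters, whereas the percentages are of single windows, and Brd2 had several windows. The RefSeq start of Hexim1 lies downstream of its GENCODE start, and the first sequence covers the bases of the window upstream of the GENCODE start, at chr11:103116075-103116230 on the plus strand, with TATAA in capitals beginning 27 bases before the GENCODE start and 121 bases before the RefSeq start. The second covers the 139 bases between the first exons of Larp7 and of its divergent neighbour Zgrf1, at chr3:127553350-127553488 and read on the minus strand, with TGACGTCA in capitals beginning 121 bases before the Larp7 start, which is the same in both annotations. A second TGACGTCA in the Larp7 window begins 2 bases after that start and is not in the printed stretch. A match is a description of these letters and not a bound site.
Hexim1 upstream: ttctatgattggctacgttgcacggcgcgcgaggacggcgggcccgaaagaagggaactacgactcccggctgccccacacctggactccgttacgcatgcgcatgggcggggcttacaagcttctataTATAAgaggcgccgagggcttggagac
Larp7 upstream: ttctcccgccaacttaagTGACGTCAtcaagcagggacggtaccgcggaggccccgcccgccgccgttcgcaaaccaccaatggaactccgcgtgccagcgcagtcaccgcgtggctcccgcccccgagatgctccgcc

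The mouse 7SK RNA is a single exon of 331 bases on chromosome 9 (GENCODE M21), written here with T for U. Its first 60 bases hold the beginning of the 5′ hairpin, where HEXIM1 is known to recognise paired GATC motifs, and the 3 GATC motifs of the whole RNA begin at positions 13, 42 and 64. The first 2 are in capitals below. The third lies past base 60 and is not printed. Which of the 3 motifs pair with each other was not examined, so the 2 in capitals are not shown to be a pair. The last 40 bases, positions 292 to 331, end in the run of T residues (capitals) that LARP7 is known to hold.
7SK bases 1 to 60: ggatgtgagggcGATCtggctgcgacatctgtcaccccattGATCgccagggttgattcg
7SK bases 292 to 331: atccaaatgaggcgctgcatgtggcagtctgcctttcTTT

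Among the BET readers, Brd2 (chr17:34112023-34122634, minus strand) had 6749 and 6672 normalised counts in untreated and 6923 and 6582 in genistein libraries. One genistein library lay above and the other below both controls, so the groups overlapped. The log2 fold change was 0.01 ± 0.04 (SE, n = 2 per group, edgeR adjusted p = 0.831), and its 95% interval allowed changes between 0.954-fold and 1.06-fold. Annotated exons of Brd2 share 4.6% of their bases with H2-DMa and 5.18% with an antisense RNA, both on the opposite strand. The strand setting of the counting is not given in the sources used here, so reads of these pairs cannot be told apart.

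Brd3 (chr2:27445579-27507662, minus strand), the second BET reader, had 2124 and 2109 normalised counts in untreated and 1940 and 1859 in genistein libraries. Both genistein libraries were below both controls. The fall was 0.16 ± 0.04 on the log2 scale in edgeR (adjusted p = 0.00256), the smallest of the 3 falls called among the 8 genes. Scaling by library totals alone left -0.09 with an adjusted p of 0.0817, which ended the call. Brdt, the testis member of the BET family, was not among the 8 genes and had few reads, at 17.98 and 22.2 normalised counts in untreated and 66.6 and 72.9 in genistein libraries. Brdt rose 3.46-fold (log2 fold change 1.79 ± 0.23, edgeR adjusted p = 2.51e-06), and both treated libraries were above both controls.

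Cdk9 (chr2:32705784-32713076, minus strand), the catalytic subunit of P-TEFb, had 1181 and 1162 normalised counts in untreated and 926 and 878 in genistein libraries. The groups did not overlap, and the gap between them was wider than the spread within either. The log2 fold change was -0.38 ± 0.05 (edgeR adjusted p = 9.19e-06), with a 95% interval from -0.49 to -0.26. Exons of Cdk9 contain the microRNA genes Mir2861 and Mir3960 on the same strand, over 1.78% and 1.58% of its exonic bases.

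Both cyclin T genes leaned the other way from the kinase. Ccnt1 (chr15:98538689-98570923, minus strand) encodes the main cyclin partner and had 3403 and 3502 normalised counts in untreated against 3581 and 3688 in genistein libraries. Its groups did not overlap, but the log2 fold change of 0.07 ± 0.04 missed the threshold (edgeR adjusted p = 0.0683, 95% interval to 0.15). Scaling by library totals (0.14, adjusted p = 0.00381) or by factors from genes alone (0.12, adjusted p = 0.00662) called it higher. An antisense RNA on the opposite strand covers 7.59% of its exonic bases.

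Ccnt2 (chr1:127774164-127808061, plus strand), the alternative cyclin, had 2457 and 2494 normalised counts in untreated and 2639 and 2809 in genistein libraries. The genistein libraries were both higher, with more spread between them than between the controls. The rise was 0.14 ± 0.04 on the log2 scale (edgeR adjusted p = 0.00553). It rested on genistein replicate 2, without which the log2 fold change was 0.09 with an adjusted p of 0.0965, and DESeq2 did not call it (0.11, adjusted p = 0.117).

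**Figure D1:**
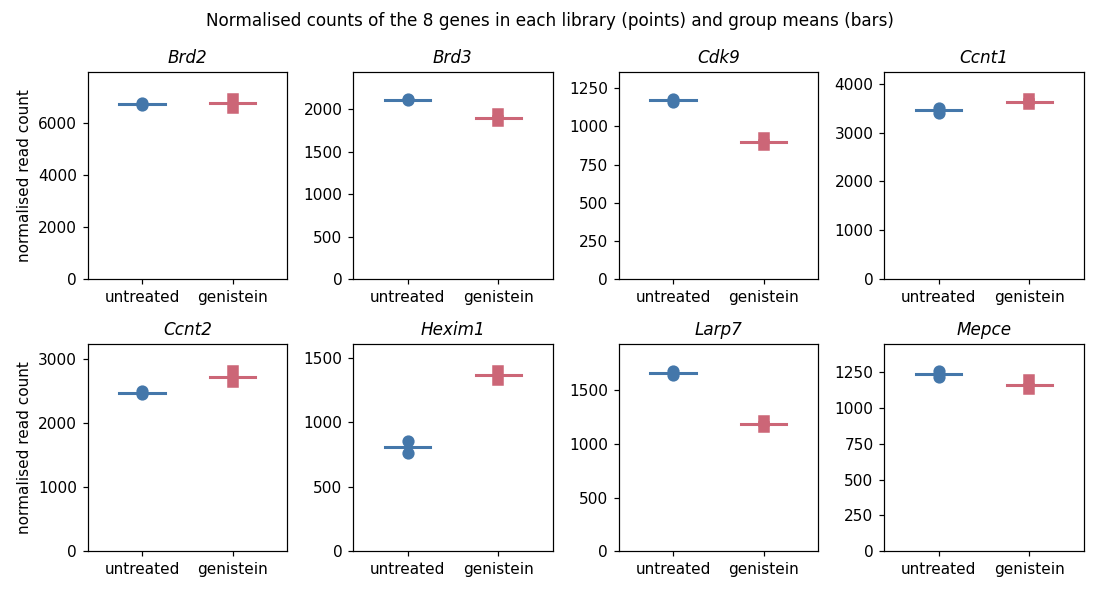
Normalised read counts (y axis, from 0, separate scale per panel) of the 8 genes in the 2 untreated libraries (blue circles) and the 2 genistein libraries (red squares), with group means as bars. Hexim1 stood between 1329 and 1396 with genistein against 762 and 858 in the controls, Cdk9 and Larp7 were below their controls in both genistein libraries, and Brd2 overlapped.

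Among the 7SK complex proteins, Hexim1 (chr11:103116231-103119725, plus strand, a gene of 1 exon) encodes the RNA-bound inhibitor of CDK9. It had 858 and 762 normalised counts in untreated and 1329 and 1396 in genistein libraries. Both treated libraries lay well above both controls. The log2 fold change was 0.75 ± 0.06 (edgeR adjusted p = 1.09e-08), with a 95% interval from 1.54-fold to 1.84-fold, and its size exceeded that of 72.3% of all genes tested. Hexim2, which encodes a related inhibitor, had 80.9 and 86.8 normalised counts in untreated and 78.8 and 46.6 in genistein libraries. One genistein library was close to the controls and the other far below. Its log2 fold change of -0.41 ± 0.21 was not called (edgeR adjusted p = 0.0875), but it was -0.84 with an adjusted p of 0.00363 without genistein replicate 1 and -0.09 without genistein replicate 2.

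Larp7 (chr3:127536714-127553349, minus strand), the La-related protein that protects the 3′ end of 7SK, had 1646 and 1679 normalised counts in untreated and 1218 and 1159 in genistein libraries. The groups were clearly separate. The log2 fold change was -0.48 ± 0.05 (edgeR adjusted p = 1.19e-07, 95% interval -0.58 to -0.38). Mepce (chr5:137781906-137787655, minus strand), the methyltransferase that caps the 5′ end of 7SK, had 1210 and 1253 normalised counts in untreated and 1193 and 1129 in genistein libraries. The genistein libraries were slightly below the controls without overlap, and the log2 fold change of -0.08 ± 0.05 did not pass the test (edgeR adjusted p = 0.152, 95% interval -0.19 to 0.02). Groups did not overlap for 7 of the 8 genes, as for 85.3% of all genes tested.

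Rn7sk, transcribed by RNA polymerase III, is the RNA on which these proteins assemble. It had 134541 and 136889 normalised counts in untreated and 85490 and 88064 in genistein libraries. Both treated libraries were far below the controls. Its log2 fold change was -0.65 ± 0.04 (edgeR adjusted p = 1.37e-10). The repeat annotation counts 7SK copies across the genome as a separate entry, which had 113688 and 116016 normalised counts in untreated and 73611 and 72214 in genistein libraries and a log2 fold change of -0.66. Reads of the gene and its near-identical copies could be split between these entries by the counting, so neither count is exact and they are not independent of each other.

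**Figure D2:**
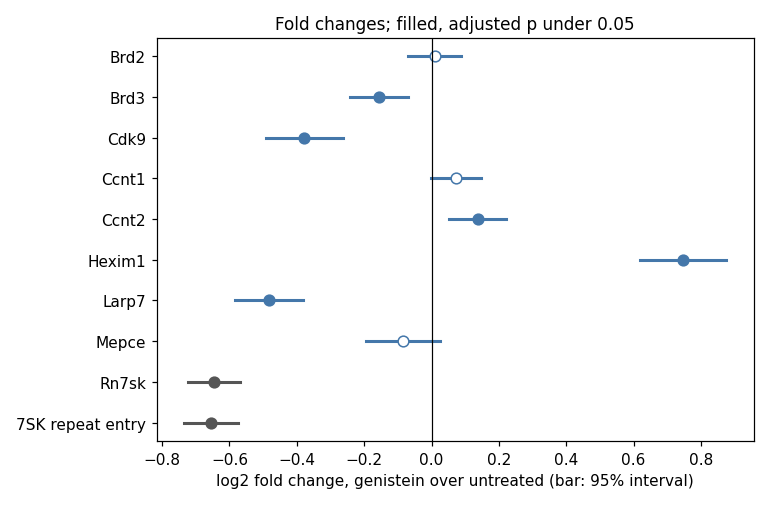
Log2 fold change of genistein over untreated (x axis) for the 8 genes (blue), for Rn7sk and for the 7SK repeat entry (grey), each with its 95% interval. Filled points passed an adjusted p of 0.05, and the 3 open points are Brd2, Ccnt1 and Mepce, whose intervals include 0.

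Counts divided by exon length allow the 8 genes to be set side by side. In untreated cells the order of the levels, in normalised counts per kilobase of exon per 1000000, was Brd2 (28.7 ± 0.233, SD, n = 2), Larp7 (23.5 ± 0.328), Ccnt1 (12.6 ± 0.255), Mepce (11.6 ± 0.291), Brd3 (9.64 ± 0.0479), Cdk9 (8.49 ± 0.0939), Hexim1 (7.75 ± 0.648) and Ccnt2 (6.70 ± 0.0706). No neighbours in this order overlapped between libraries, although Ccnt1 exceeded Mepce only 1.09-fold and Cdk9 exceeded Hexim1 only 1.10-fold. In genistein cells the levels were 28.8 ± 1.03 for Brd2, 16.8 ± 0.591 for Larp7, 13.3 ± 0.277 for Ccnt1 and 13.0 ± 0.454 for Hexim1. They were 10.9 ± 0.427 for Mepce, 8.66 ± 0.260 for Brd3, 7.38 ± 0.326 for Ccnt2 and 6.54 ± 0.246 for Cdk9. Hexim1 thus moved from place 7 to place 4, where its libraries overlapped those of Ccnt1, and Cdk9 moved from place 6 to the last. The lengths are of all annotated exons joined, and with the longest transcript in their place Hexim1 was last in untreated cells and Ccnt2 stood at place 7, and in genistein cells Ccnt2 stood at place 6 and Brd3 at place 7.

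**Figure D3:**
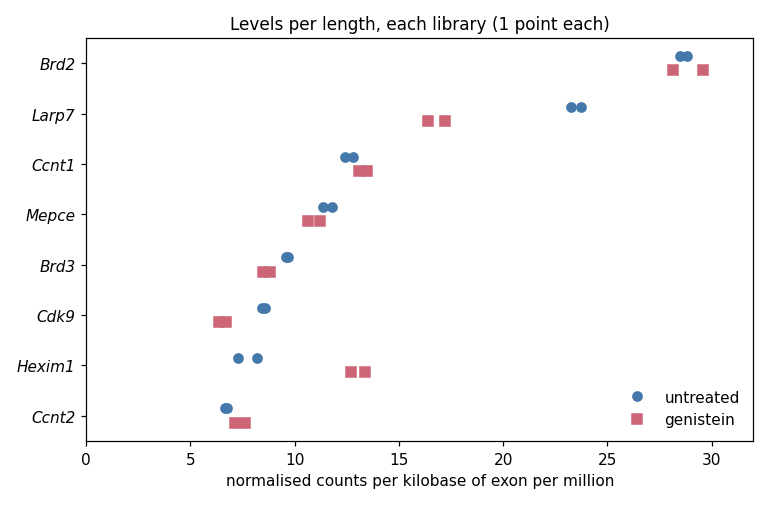
Level of each gene in normalised counts per kilobase of exon per 1000000 (x axis) in each untreated (blue circles) and genistein (red squares) library, ordered by the untreated level. Hexim1 lies at 7.75 on average in untreated and 13.0 in genistein libraries, and Larp7 at 23.5 and 16.8.

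Ratios of these levels within a library do not depend on how the libraries were scaled. The ratio of Hexim1 to Cdk9 was 0.959 and 0.865 in untreated and 1.89 and 2.10 in genistein libraries. The inhibitor transcript was thus below the kinase transcript per length in both controls and above it in both treated libraries. The ratio of summed Ccnt1 and Ccnt2 to Cdk9 was 2.23 and 2.32 in untreated and 3.01 and 3.31 in genistein libraries. Larp7 to Mepce was 2.04 and 2.01 in untreated and 1.53 and 1.54 in genistein libraries. Brd2 to Brd3 was 2.98 and 2.97 in untreated and 3.35 and 3.32 in genistein libraries. The ratio between the cyclins moved least, with Ccnt1 to Ccnt2 at 1.87 and 1.89 in untreated and at 1.83 and 1.77 in genistein libraries. With 2 libraries a group an exact permutation test of a single ratio cannot give a two-sided p below 0.333, so these ratios carry no test.

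**Figure D4:**
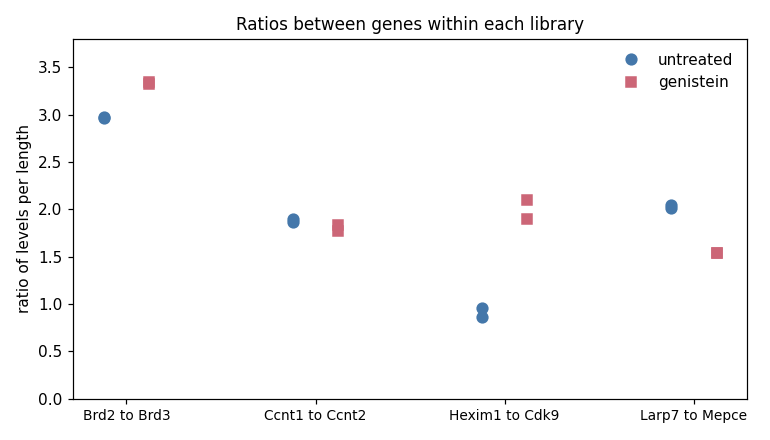
Ratio of levels per length (y axis, from 0) for 4 gene pairs in each untreated (blue circles) and genistein (red squares) library. Hexim1 to Cdk9 lies under 1 in both untreated libraries and at 1.89 and 2.10 with genistein, while Ccnt1 to Ccnt2 stays between 1.77 and 1.89 in the 4 libraries.

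Genes that work with P-TEFb were described through 6 lists of partners, holding 53 genes. Of the 52 tested, 10 were called higher, 38 lower and 4 not called, with a median log2 fold change of -0.30. The 4 not called were Hexim2, Supt5, Ctr9 and Rtf1. Over all genes tested 33.5% were called higher and 38.2% lower, and the counts of each list below stand beside these shares. The median was -0.03 over all genes and -0.10 over genes with a mean count over 100. When the test asked for a fold over 1.2, 23 partner genes were called lower, beside 26.8% of all genes. Scaling by library totals alone called 29 lower, and factors from genes alone and DESeq2 each called 31 lower.

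In the list of 7SK and P-TEFb partners, 1 of 9 genes rose, 7 fell and 1 was not called, with a median of -0.83. The one that rose was Brdt. Ddx21, an RNA helicase that frees P-TEFb from 7SK, had 16767 and 16263 normalised counts in untreated and 5702 and 5768 in genistein libraries (log2 fold change -1.53 ± 0.05). Srsf2, a splicing factor found with 7SK at promoters, had 12472 and 12000 against 5405 and 5875 normalised counts (-1.12 ± 0.05), and shares 15.6% of its exonic bases with Mettl23 on the opposite strand. The fall was 2.88-fold for Ddx21 and 2.17-fold for Srsf2, with no overlap between groups.

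The super elongation complex joins P-TEFb to ELL and AFF scaffold proteins, and here the balance was the opposite, with 6 of 8 genes higher, 2 lower and a median of 0.45. Ell, an elongation factor, had 464 and 457 normalised counts in untreated and 742 and 702 in genistein libraries (log2 fold change 0.65 ± 0.06). Eaf2, an ELL partner, was barely detected, at 8.99 and 3.18 against 18.7 and 16.2 normalised counts. Its log2 fold change of 1.49 ± 0.45 lost its call without untreated replicate 2 (0.95, adjusted p = 0.118) and in DESeq2 (adjusted p = 0.13), and was 2.41 without untreated replicate 1. The 2 that fell were Eaf1 (-0.31 ± 0.04) and Mllt1, the chromatin reader ENL, which had 2483 and 2423 normalised counts in untreated and 1597 and 1543 in genistein libraries (-0.64 ± 0.04).

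NELF and DSIF hold the paused polymerase on which P-TEFb acts, and 5 of their 6 genes fell, with none higher and a median of -0.34. The test against a fold of 1.2 called 3 of the 6 lower. Library totals alone, factors from genes alone and DESeq2 each called 4 lower. Nelfa fell most, from 1144 and 1115 to 609 and 651 normalised counts (log2 fold change -0.84 ± 0.06). Nelfe had a log2 fold change of -0.52 ± 0.06 and Nelfcd of -0.39 ± 0.05, while the DSIF subunit Supt5 overlapped between groups (-0.08 ± 0.04, not called). Supt5 was called lower without untreated replicate 2 (-0.13, adjusted p = 0.0129) and without genistein replicate 1 (-0.14, adjusted p = 0.0123), and was -0.03 without genistein replicate 2. In the PAF complex and SPT6, which travel with elongating polymerase, 5 of 7 genes fell and 2 were not called, with a median of -0.13. Wdr61 fell by 0.52 ± 0.05 on the log2 scale and shares 33.9% of its exonic bases with Dnaja4 on the opposite strand. Leo1 had -0.24 ± 0.06 and Paf1 -0.19 ± 0.06 as log2 fold change. The call of Paf1 was lost without untreated replicate 1 (-0.11, adjusted p = 0.16) and without genistein replicate 1 (-0.12, adjusted p = 0.118). Ctr9 (-0.07 ± 0.04, not called) was called lower without untreated replicate 2 (-0.11, adjusted p = 0.0326) and without genistein replicate 2 (-0.12, adjusted p = 0.0401). Scaling by library totals alone left 2 of these 5 calls, and 3 genes were called lower without genistein replicate 1. The test against a fold of 1.2 left 1, that of Wdr61, and Cdc73 lost its call in 8 of the 11 alternatives.

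Of 9 genes for other transcription kinases and their cyclins, 2 rose and 7 fell, with a median of -0.15. Scaling by library totals alone left 3 of the 7 falls, and the test against a fold of 1.2 left only those of Cdk7 and Cdk12. Ccnc lost its call in 7 of the 11 alternatives, and Cdk8 and Ccnh in 6 each. Without untreated replicate 1, without genistein replicate 1 or in DESeq2, 4 genes of this list were called lower. Cdk19, a Mediator kinase, had 1334 and 1313 normalised counts in untreated and 2262 and 2188 in genistein libraries (log2 fold change 0.75 ± 0.04). Cdk12, which phosphorylates the polymerase tail during elongation, moved down from 3940 and 3958 to 2699 and 2636 normalised counts (-0.57 ± 0.03), whereas its cyclin Ccnk moved up from 379 and 404 to 595 and 505 (0.49 ± 0.08).

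Of the 13 listed genes of RNA polymerase II subunits and their associated factor, 12 fell and 1 rose, with a median of -0.56. The one that rose was Polr2a, the catalytic subunit whose tail P-TEFb phosphorylates, at 3791 and 4234 normalised counts in untreated and 8231 and 7361 in genistein libraries (log2 fold change 0.96 ± 0.05). Polr2h, a small subunit shared by the nuclear polymerases, had 782 and 745 against 331 and 306 normalised counts (-1.26 ± 0.07). Polr2i, another small subunit, had -0.94 ± 0.09 as log2 fold change and shares 26.8% of its exonic bases with Tbcb on the opposite strand. Polr2l (-0.175 ± 0.065) lost its call in 6 of the 11 alternatives, among them DESeq2 (adjusted p = 0.12). Polr2k lost its call in 2 of them and Polr2g in 1. Adjusted p-values of the genes named from the lists, other than Hexim2, Supt5, Ctr9 and Rtf1, were at most 0.0347 in edgeR.

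**Figure D5:**
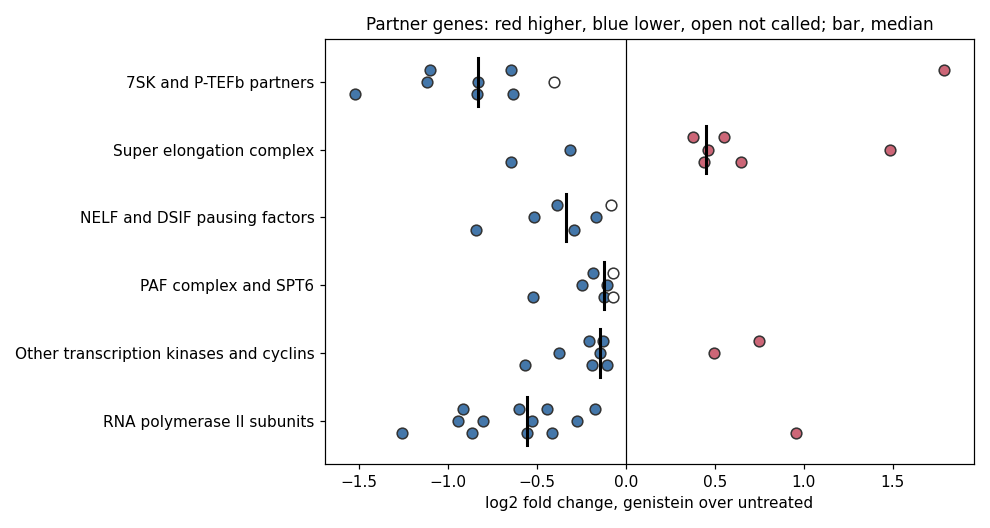
Log2 fold change of genistein over untreated (x axis) for each tested gene of the 6 partner lists, red where called higher, blue where called lower and open where not called, with the list median as a black bar. The super elongation complex has its median at 0.45, and the medians of the other lists lie between -0.83 and -0.13.

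The pattern of Hexim1 over the 4 libraries was most closely followed by Ifi35, Nlrc3 and Cebpd, out of 10117 protein-coding genes with a mean over 100. Likeness was the Euclidean distance between log2 normalised counts centred on the mean of each gene, which was 0.0175 for Ifi35, 0.0379 for Nlrc3 and 0.0381 for Cebpd. Cebpd had 436 and 398 normalised counts in untreated and 699 and 722 in genistein libraries. A distance under 0.25 was found for 702 genes, so such a profile was common among these libraries.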

How the data were processed

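Total RNA depleted of ribosomal RNA was sequenced from MEF cells, 2 libraries untreated and 2 after 50 µM genistein for 24 h. The authors used Trim Galore for adapter removal from paired reads and STAR for alignment to mm10 (GRCm38), keeping reads with several matches, and counted genes (GENCODE M9) and repeats with TEtranscripts. The deposited values are raw counts per gene or repeat, with no depth correction. Totals were 28591958 to 31464284 counts per library. Libraries of a group differed by more than counting noise (chi-square per degree of freedom 5.92 in untreated and 13.3 in genistein), so errors were taken from the spread between libraries. An entry without a name (at most 0.00314% of a library) was left out. Gene symbols, exon lengths and coordinates came from GENCODE M21 (GRCm38), promoter windows from RefSeq.

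Genes and repeats were fitted together with edgeR 4.0.16 in R 4.3.3 (filterByExpr, TMM, quasi-likelihood test, Benjamini-Hochberg adjustment over 16240 genes and 1118 repeats). Normalised counts are counts scaled to the mean effective library size. The test was checked on simulated data. Alternatives were other scalings, no filter, DESeq2 1.42.0, a test against a fold of 1.2, the replicate number as a block, leaving out each library, and the thresholds of the study. Lists of cell type and cell cycle markers were described in the same fit.

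The 8 genes and the lists were chosen with earlier results of these data known. Named were the 8 genes, Rn7sk, Hexim2 and Brdt, up to 3 genes per partner list with the largest absolute log2 fold change among those called, and the 3 genes nearest to Hexim1. Eaf1, Supt5, Ctr9, Rtf1, Cdc73, Cdk7, Cdk8, Ccnc, Ccnh, Polr2g, Polr2k, Polr2l and the named markers fall outside this rule and were named after their values were seen.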

Additional observations from a re-analysis of the deposited data

How the results depend on the processing

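The calls of Cdk9, Hexim1 and Larp7 held with the same sign under the 11 alternatives in which they were refitted, and Brd2 and Mepce were called under none of them, with Brd2 changing sign. The log2 fold change of Hexim1 ranged from 0.66 to 0.83, that of Larp7 from -0.52 to -0.41 and that of Cdk9 from -0.41 to -0.31. Scaling by library totals alone gave -0.086 for Brd3 (not called) and 0.14 for Ccnt1 (called), and factors from genes alone gave 0.12 for Ccnt1 (called). The test against a fold of 1.2 did not call Brd3 (-0.16) or Ccnt2 (0.14), and DESeq2 did not call Ccnt2 (0.11). Leaving out each library in turn gave 0.093 to 0.187 for Ccnt2, with the call lost without genistein replicate 2. Of the 8 genes, 1 was called higher under the fold of 1.2, 1 in DESeq2 and 1 to 2 with a library left out. The thresholds of the study called 0 higher and 0 lower. Partner genes called lower numbered 23 under the fold of 1.2, 29 with library totals alone, and 31 with factors from genes alone or in DESeq2. With the longest transcript as length, places in the order of levels were 7 for Ccnt2 and 8 for Hexim1 in untreated and 7 for Brd3 and 6 for Ccnt2 in genistein libraries. Libraries of the same replicate number did not deviate together (r = -0.026 over 12244 entries, 2 pairs), so the numbers are not shown to pair them. With the replicate number as a block, 2 of the 8 genes were called higher and 3 lower, and of the partner genes 10 were called higher and 37 lower. The log2 fold change of Hexim1 was then 0.75 and that of Larp7 -0.48. Shares of all genes are given only for the main fit and for lower calls under the fold of 1.2 (26.8%). Counts under the other settings are therefore not set against a background. Raw counts of Eaf2 were between 3 and 20, and depth limits the precision of such a gene.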
